A study of Caenorhabditis elegans with 2 samples.

Results

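Chromatin regions recovered with the POU homeodomain factor CEH-6 at genes of 3 kinds of small RNA, small nucleolar RNA (snoRNA), small nuclear RNA (snRNA) and microRNA (miRNA), are described here. A region was counted when its summit, the position of highest signal, lay within 100 bp of such a gene and no tRNA gene lay within 100 bp. The spliced leader genes sls-1 and sls-2 and the miRNA genes mir-51 to mir-56 were not counted. The rule used position and annotation, and no signal. It found 215 of the 30000 regions of the list called on the reads of both replicates, of which 29977 are nuclear. There were 131 regions at snoRNA genes, 37 at snRNA genes and 46 at miRNA genes, and 1 region lay near a gene of each of the first and last kind (mir-5546 and Y71F9AL.24). These regions reached 206 of the 700 annotated genes of the 3 classes, which are 346 snoRNA, 99 snRNA and 255 miRNA genes.

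The chromatin came from whole Caenorhabditis elegans embryos of strain OP748, which carries the integrated transgene wgIs748 with ceh-6 fused to TY1, EGFP and 3xFLAG tags and a working unc-119 copy, in the unc-119(ed3) mutant and the VC2010 background. The embryos, late in stage, of mixed sex and obtained by egg bleaching, carry the age label 3.3 hours, and the samples are biological replicates 1 and 2 of the only group. DNA was sheared by sonication to a labelled size range of 200 to 800 bp and precipitated through the GFP tag of 1 transgenic strain. No untagged strain, other stage or other genotype enters, so whether a region depends on the tagged protein was not tested. No comparison of groups of samples was possible.

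snoRNAs guide the chemical modification of ribosomal RNA: those of the C/D type direct methylation of the ribose, and those of the H/ACA type direct the change of uridine to pseudouridine. snRNAs are the RNA cores of the spliceosome, and miRNAs guide Argonaute proteins to messenger RNAs. Genes of small RNAs differ in how they are transcribed. tRNA genes carry an A box and a B box inside the gene, which the factor TFIIIC binds to recruit RNA polymerase III, and in C. elegans some snoRNA genes are known from earlier work to have such boxes just upstream. snRNA genes use a proximal sequence element ahead of the gene, and many snoRNA genes in animals lie in introns of host genes.

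The sequences ahead of the strongest snoRNA regions hold letters like the boxes of tRNA genes. Below are the stretches from 75 bases before to 10 bases into 5 snoRNA genes, taken from the RefSeq copy of WBcel235 on the strand of the gene. They are the 5 genes of highest signal among those that hold both boxes. W03C9.9 is at chrII:11960823-11960907 (plus strand), T03F7.8 at chrV:11314183-11314267 (plus), T06C12.16 at chrV:15873917-15874001 (minus), C04G6.12 at chrII:5105222-5105306 (minus) and C05D2.15 at chrIII:5602170-5602254 (minus). The first run of capitals is the A box and the second is the B box.
W03C9.9: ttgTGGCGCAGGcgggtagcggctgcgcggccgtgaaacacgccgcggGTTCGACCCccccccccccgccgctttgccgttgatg
T03F7.8: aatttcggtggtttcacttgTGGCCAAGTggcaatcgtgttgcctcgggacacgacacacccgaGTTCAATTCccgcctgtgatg
T06C12.16: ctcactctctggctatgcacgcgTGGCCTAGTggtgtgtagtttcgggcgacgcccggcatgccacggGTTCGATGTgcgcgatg
C04G6.12: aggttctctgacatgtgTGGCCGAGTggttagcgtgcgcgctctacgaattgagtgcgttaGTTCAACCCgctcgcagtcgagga
C05D2.15: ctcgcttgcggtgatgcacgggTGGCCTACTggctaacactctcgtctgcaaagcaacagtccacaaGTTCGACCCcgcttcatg
The boxes are given as TGGCNNAGT for A and GTTCGANNC for B, each with at most 1 mismatch in its fixed letters. They had to lie on the same strand with their first bases 30 to 70 bp apart. This search was written after the sequences ahead of the strongest snoRNA regions had been read, so what it finds at them is a description.

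The authors' set of reproducible peaks, which passed the irreproducible discovery rate (IDR) procedure, holds 741 regions, 718 of them nuclear, and these are exactly the first 741 regions of the pooled list by signal. Signal is the value the authors' caller gave to each region, on a scale that is not stated, and it is used only within a list. Rank 1 is the highest signal of a list. The lists hold no read counts, so depth is unknown, and intervals given with shares are exact (Clopper-Pearson) 95% intervals that cover the counting of regions or genes only. No test was made, because the members are regions of 1 pooled call and not replicates of a condition.

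Of the 215 regions, 60 (27.9%, 22.0 to 34.4%) were in the IDR set, beside 2.4% of all nuclear regions. The classes differed: 53 of the 60 lay at snoRNA genes, 6 at snRNA genes and 1 at a miRNA gene. By gene, 54 of 346 snoRNA genes (15.6%, 11.9 to 19.9%), 5 of 99 snRNA genes (5.05%, 1.66 to 11.4%) and 1 of 255 miRNA genes (0.392%, 0.0099 to 2.17%) had an IDR peak, beside 1.84% of all 46890 nuclear genes. The intervals of the snRNA and miRNA shares include the value of all nuclear genes, and that of the snoRNA share lies wholly above it. Among the 50 nuclear regions of highest signal, 23 lay at snoRNA genes and 18 at tRNA genes.

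The 53 snoRNA regions of the IDR set had a median rank of 78, with ranks from 1 to 524. The other 79 regions with a snoRNA gene had a median rank of 10685 and started at rank 755, so no snoRNA region lay between rank 524 and the end of the IDR set. All nuclear regions had a median rank of 15012. The miRNA regions, with a median rank of 13825.5, and the snRNA regions below the IDR set, with 12407, were close to that value. snoRNA regions in the IDR set were also narrow, with a median width of 298 bp and 27 of 53 under 300 bp, against a median of 410 bp for all 718 nuclear IDR peaks, of which 123 were under 300 bp. Narrow regions were also common at tRNA genes, with 66 of 196 IDR peaks under 300 bp, against 30 of 462 other nuclear IDR peaks. All nuclear IDR peaks had a median rank of 380.5, and widths were not compared at matched rank.

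**Figure D1:**
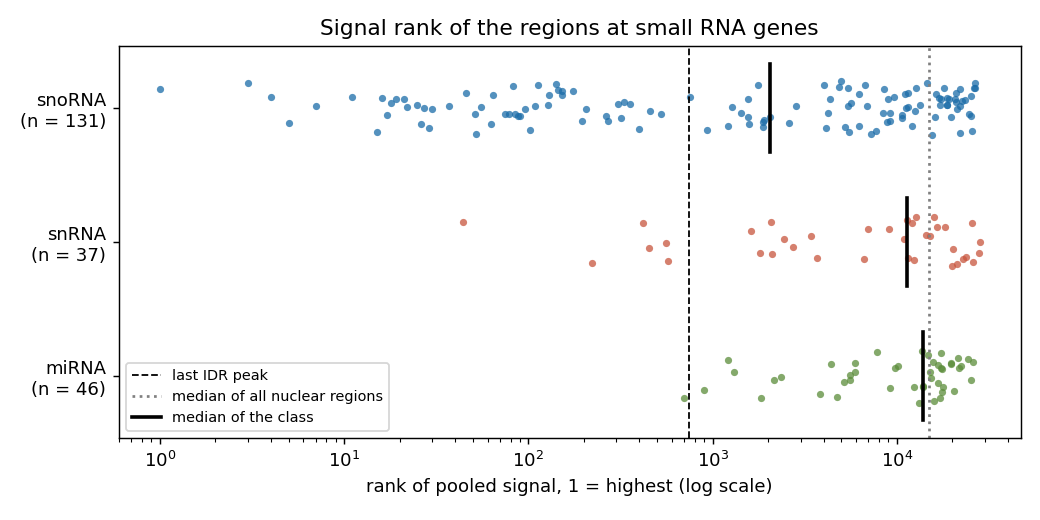
Rank of pooled signal (x axis, log scale, 1 = highest) of each region at snoRNA, snRNA and miRNA genes, with 1 point per region, a black bar at the median of the class, a dashed line at the last IDR peak and a dotted line at the median of all nuclear regions. The region shared by mir-5546 and Y71F9AL.24 is not drawn. The snoRNA regions fall into a group of 53 at ranks 1 to 524 and a second group from rank 755 on, while 45 of the 46 miRNA regions lie to the right of the dashed line.

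The strongest region of the whole pooled list had its summit at chrV:12303638, inside the snoRNA gene C51F7.4 (chrV:12303599-12303693). Its signal was 1483.5, with 652.6 in replicate 1 and 829.4 in replicate 2, ranks 1 and 2 of those lists. This annotated gene itself holds box-like letters, an A box with 2 mismatches and an exact B box 55 bp further on. The C/D snoRNA gene C51F7.3 begins just after it at position 12303708, so that the boxes start 99 and 44 bp before C51F7.3 and the summit lies 70 bp before it. The full C51F7.4 sequence on the plus strand is shown because its boxes lie inside the annotated gene, with the A box and B box in capitals.
C51F7.4: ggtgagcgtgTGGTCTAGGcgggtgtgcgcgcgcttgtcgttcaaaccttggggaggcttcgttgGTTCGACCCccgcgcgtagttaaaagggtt

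W03C9.9, a gene of the C/D type between coding genes, had the next highest signal among the snoRNA regions, 1355.4, with 534.5 in replicate 1 and 815.8 in replicate 2. ZK265.10 on chromosome I followed with a signal of 1164.4, with 468.3 in replicate 1 and 694.5 in replicate 2. T03F7.8, on the opposite strand of an intron of cutl-18, had 1121.6 in the pooled list, with 439.5 in replicate 1 and 683.5 in replicate 2. These regions had ranks 3, 4 and 5 in the pooled list, and all stood among the 5 highest in both replicates.

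T06C12.16 followed at rank 7 with a signal of 1006.9, and ZK994.7, in an intron of pxn-1, at rank 11 with 847.2. The other 9 of the 15 snoRNA regions of highest signal were, in order, at T02E1.9, C04G6.12, C05D2.15, Y43F8C.22, D1046.6, F32E10.10, F38E11.14, H09I01.2 and C41C4.11. Their signals ran from 701.6 at T02E1.9 to 582.0 at C41C4.11 and their ranks from 15 to 26. In replicate 1 the same 9 regions had ranks 15 to 30, and in replicate 2 ranks 16 to 31.

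At the lower end of the IDR set the snoRNA regions were Y37E3.20, with rank 524, and F25H5.9, an H/ACA-like gene in an intron of the pyruvate kinase gene pyk-1, with rank 459. The first snoRNA region below the set was F19H8.6, in an intron of mltn-9, with rank 755 and a signal of 104.8. Its replicate ranks were 2551 and 737, so replicate 2 alone would have placed it among its first 741. F19H8.6 holds both boxes, with the A box 56 bp and the B box 11 bp before the gene.

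Both replicates placed the snoRNA regions of the IDR set alike, which is in part built in. The IDR procedure selects for agreement of the replicates, and the pooled list holds the reads of both. This holds for every set of IDR peaks given here. Of the 53 in the IDR set, 51 (96.2%, 87.0 to 99.5%) fell by their summit in the 741 highest regions of each replicate, and 55 of all 60 members did (91.7%, 81.6 to 97.2%). The same held for 162 of 196 IDR peaks at tRNA genes (82.7%, 76.6 to 87.7%), 253 of 462 other nuclear IDR peaks (54.8%, 50.1 to 59.4%) and 470 of all 718 (65.5%, 61.9 to 68.9%). The 2 snoRNA exceptions were H04D03.5, in replicate ranks 952 and 295, and F25H5.9, in ranks 367 and 929. Replicate ranks lay within 1.5 times of each other for 44 of 53 snoRNA regions, 123 of 196 tRNA gene regions and 216 of 462 other IDR peaks. The snoRNA regions are among the highest of the set, and these shares were not compared at matched rank.

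**Figure D2:**
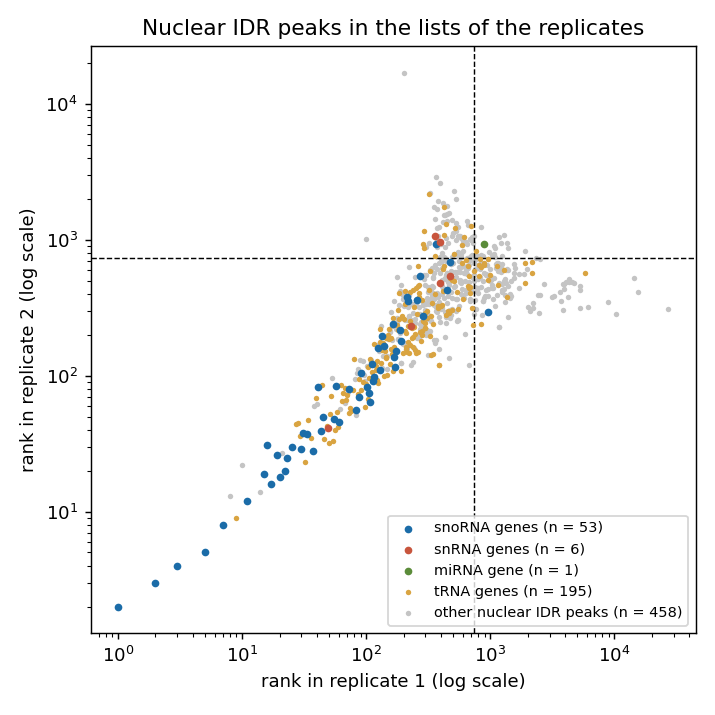
Rank in replicate 1 (x axis) against rank in replicate 2 (y axis), both on log scales, for the nuclear IDR peaks found in both replicate lists, coloured by the kind of gene at the summit, with dashed lines at rank 741. The snoRNA points follow the diagonal from ranks 1 and 2 upward, 51 of 53 lie left of and below the dashed lines, and the miRNA point at ranks 883 and 926 lies beyond both.

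Most snoRNA summits in the IDR set lay just ahead of the gene. Their median position was 42 bp upstream of the first base of the gene (position -42, quartiles -53 and -33), and 46 of 53 lay 20 to 70 bp upstream. In all, 49 summits were upstream, 3 inside (C51F7.4, ZK994.7 and K02C4.8) and 1 downstream of the annotated gene (B0334.12, position 119). Of the 78 regions below the IDR set that lay at snoRNA genes alone, 32 were upstream, 31 inside and 15 downstream, and 20 lay 20 to 70 bp upstream. Their median position was 43, with quartiles from -39 to 109, so they were spread over the gene and both sides of it.

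**Figure D3:**
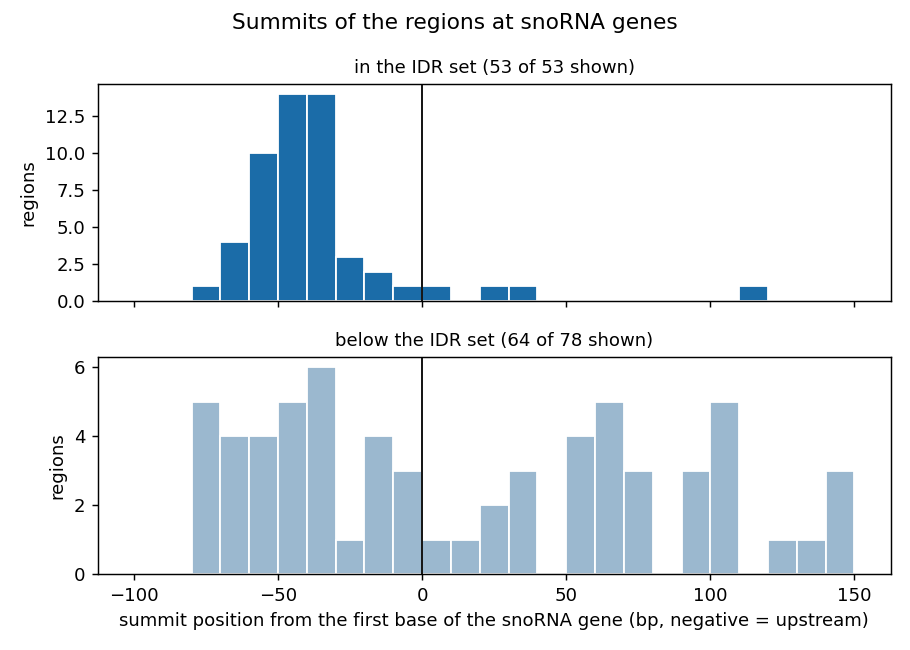
Number of regions (y axis) by position of the summit from the first base of the nearest snoRNA gene in bins of 10 bp (x axis, negative = upstream, vertical line at the gene start), for regions in the IDR set above and below the IDR set underneath. Regions further than 100 bp upstream or 150 bp downstream of the start are not drawn. The upper panel has 1 heap around position -42, and the lower panel spreads over the whole axis.

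The A and B box pair was found in the window from 120 bp before to 20 bp into the gene at 35 of 346 snoRNA genes on the strand of the gene, and at 1 of 346 on the other strand. Of the 35 genes with the pair, 31 (88.6%, 73.3 to 96.8%) had an IDR peak, against 23 of the 311 without it (7.40%, 4.75 to 10.9%). The search was written after the strongest of these sequences had been read, so the contrast is a description. In replicate 1 alone, 30 of 35 had a peak among the 741 highest regions. In replicate 2 alone, 31 of 35 did, and the pooled list holds the same reads. The same search found the pair in 464 of 612 nuclear tRNA genes (75.8%), with a median spacing of 45 bp. In the 31 snoRNA genes the median spacing was 44 bp (quartiles 44 and 45). The A box began at a median of 58 bp and the B box at a median of 14 bp before the gene.

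The following counts split the same genes by place and type, so they describe these genes and add no separate support for the pair. Among genes in an intron of a host on the same strand, 15 of 17 with the pair had an IDR peak, against 6 of 125 without it. Between coding genes these counts were 10 of 12 and 9 of 112, and in introns on the opposite strand 5 of 5 and 3 of 22. Among genes that end in ACA before the last 3 bases, a mark of the H/ACA type, they were 10 of 12 and 8 of 46. Few genes met the strict C/D rule of TGATGA near the start and CTGA near the end, and among these the counts were 4 of 4 and 1 of 10. Most snoRNA genes, 274 of 346, met neither rule, and among these the counts were 17 of 19 and 14 of 255. For genes that overlap an exon of a coding gene they were 1 of 1 and 5 of 52.

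**Figure D4:**
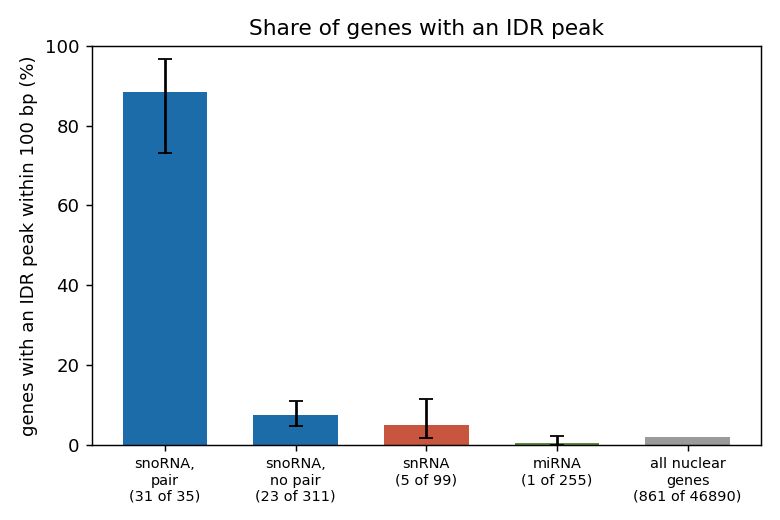
Percent of genes with an IDR peak summit within 100 bp (y axis) for snoRNA genes with and without the A and B box pair, for snRNA genes, for miRNA genes and for all nuclear genes, with exact 95% intervals on the first 4 bars. The bar of snoRNA genes with the pair stands at 88.6% and that of all other groups under 10%. The pair search was written after the sequences ahead of the strongest snoRNA regions had been read.

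Most summits lay in the gap between the boxes. At the 31 regions whose nearest gene had the pair, the summit lay a median of 17 bp after the first base of the A box (quartiles 9.5 and 21.5) and 28 bp before the first base of the B box, and 29 of 31 summits lay between the first bases of both. The 2 exceptions were H04D03.5 and R12E2.17, an intronic gene in rpn-8, with summits 8 bp before the A box. At 153 IDR peaks whose nearest tRNA gene had the pair, the summit lay a median of 2 bp after the start of the A box, with quartiles of -15 and 27, a wider spread. Within the IDR set, which is itself a cut by signal, regions at genes with the pair did not stand higher than the others. The 31 had a median rank of 85, and the 22 other snoRNA regions of the set had a median rank of 69.5. These 22 include C51F7.4 and B0334.12, whose box-like letters lie inside the annotated gene or on the other strand. The comparison leaves out all regions below the set.

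**Figure D5:**
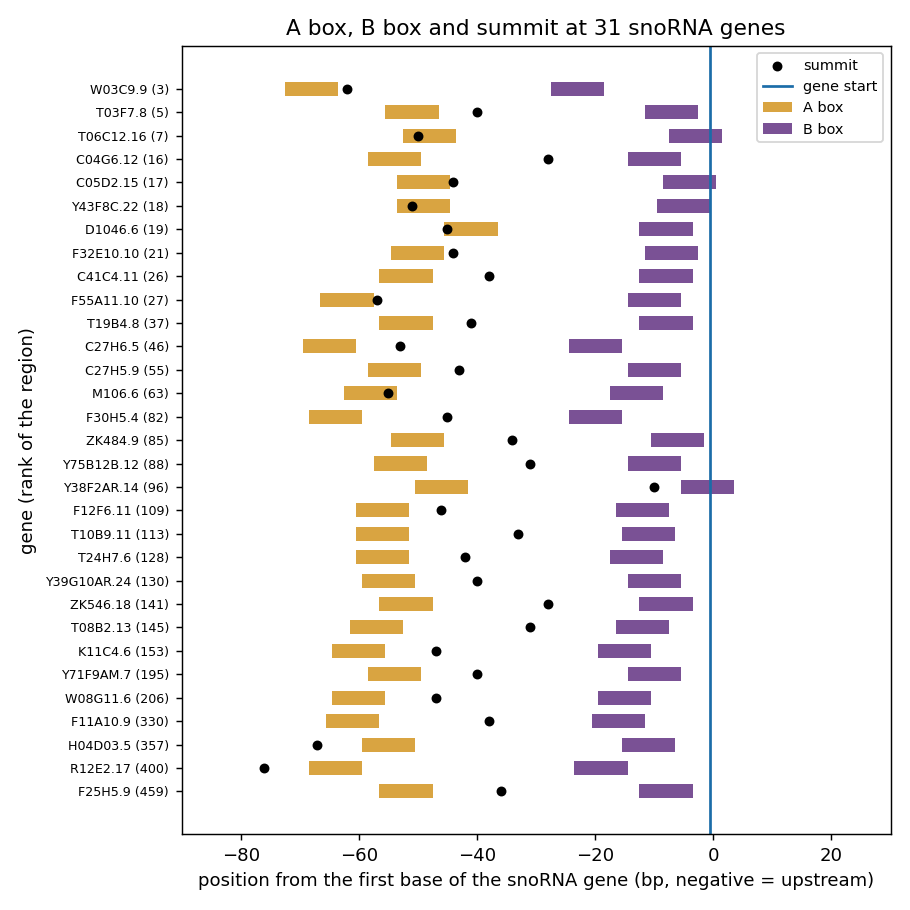
Position of the A box, the B box and the summit from the first base of the gene (x axis, bp, negative = upstream) at the 31 snoRNA genes with the pair and an IDR peak, 1 row per gene from the highest signal at the top, with the rank of the region in brackets. The A boxes stack at a median of -58, the B boxes at -14, and 29 of the 31 summits lie between the first bases of the boxes.

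A window of 100 bp to each side of the summit gave a view that does not rest on the gene start. It held the pair, on either strand, at 32 of 53 snoRNA regions of the IDR set (60.4%, 46.0 to 73.5%) and at 3 of the 79 below it (3.80%, 0.790 to 10.7%). The pair was present at 150 of 196 tRNA gene IDR peaks (76.5%), 16 of 462 other nuclear IDR peaks (3.46%) and 2.66% of all nuclear regions. The B box alone, as the exact letters GTTCGANNC on either strand, was in 17 of 53 snoRNA windows (32.1%, 19.9 to 46.3%), against 2.76% of all nuclear windows. A shorter form of the A box, GCNNAGTNG on either strand, which overlaps the longer form in most of its letters, was in 20 of 53 (37.7%, 24.8 to 52.1%), against 6.05%.

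The octamer ATGCAAAT, the sequence known for POU factors, was in 0 of the 53 snoRNA windows, for which the exact interval reaches 6.72%, and in 1.84% of all nuclear windows. It was also in none of the windows of the other members. The repeat GAGAGAGA was in 4 of 53 snoRNA windows and CACACACA in 0 of 53. In the 462 other nuclear IDR peaks the octamer was in 14 (3.03%), GAGAGAGA in 43 (9.31%) and CACACACA in 70 (15.2%).

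Some snoRNA genes had an IDR peak and no pair by this search. There were 23 of them, and 16 held a pair when 2 mismatches per box were allowed. That looser search found a pair on the strand of the gene at 47 of 54 snoRNA genes with an IDR peak (87.0%) and on the other strand at 12 of 54 (22.2%). Among the 218 snoRNA genes with no region, it found 57 on the strand of the gene (26.1%) and 48 on the other strand (22.0%). A pair at this looseness was thus also common at snoRNA genes with no region, on either strand. Sequences away from small RNA genes were not searched at this looseness. The 7 genes with a peak and no pair even so were ZK265.10, ZK994.7, B0334.12, Y23H5B.10, T27A3.9, C14C10.8 and Y37E3.20.

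B0334.12, on the opposite strand of an intron of the potassium channel gene twk-5, is the gene whose summit lay downstream. It is annotated on the plus strand at chrII:11484683-11484752, and its region had a rank of 30, with ranks 31 and 38 in the replicates and signals of 236.5 and 309.4. The pair was on the minus strand, 62 and 18 bp ahead of where a gene on that strand would begin. Read on the minus strand, the annotated stretch has TGATG, the core of a C box, within its first 20 bases and CTGA, the D box, within its last 20. On the annotated strand neither is there. The minus strand at chrII:11484743-11484827, which ends with the first 10 bases of the annotated stretch in that reading, is shown with both boxes in capitals.
B0334.12: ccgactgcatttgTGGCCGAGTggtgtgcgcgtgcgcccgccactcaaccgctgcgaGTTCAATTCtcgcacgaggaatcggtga

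The 4 snoRNA genes with the pair and no IDR peak were F19H8.6, described above, K10D2.10, with a region at rank 21954, and R166.7 and Y59E1B.14, with no region within 100 bp. Y59E1B.14 is the only one of the 35 on the X chromosome. Its stretch at chrX:1891434-1891518 (plus strand), from 75 bases before to 10 bases into the gene, is shown as a pair without a region, with both boxes in capitals.
Y59E1B.14: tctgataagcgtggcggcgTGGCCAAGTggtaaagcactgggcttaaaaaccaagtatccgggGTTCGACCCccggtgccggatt

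Few snoRNA regions of the IDR set were on the X chromosome: 1 of 53, at C53B7.8 with rank 307, against 86 of 196 IDR peaks at tRNA genes (43.9%) and 113 of 462 other nuclear IDR peaks (24.5%). Of all snoRNA genes, 33 of 346 (9.54%) are on X, and 1 of these 33 had an IDR peak (3.03%, 0.0767 to 15.8%). That interval includes the 15.6% of all snoRNA genes with an IDR peak. The share of tRNA genes on X was not counted. Chromosome I held 14 of the 53 regions, II 12, V 11, IV 9 and III 6.

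By place, the nearest snoRNA gene lay in an intron of a protein-coding host on the same strand at 20 of 53 regions (37.7%, 24.8 to 52.1%), and in an intron on the opposite strand at 8. It lay between coding genes at 19 and overlapped an exon of a coding gene at 6. Same-strand hosts included the spectrin gene unc-70, the condensin gene mix-1, the proteasome subunit gene rpn-8, pyk-1 and fars-1, which encodes a subunit of phenylalanyl tRNA synthetase. Of all 346 snoRNA genes, 142 (41.0%) lie in an intron on the same strand, 27 in an intron on the opposite strand and 124 (35.8%) between coding genes. Summits were a median of 1139 bp from the nearest start of a coding transcript, and 14 of 53 lay within the 1000 bp upstream of one. These values were not computed for other regions, so whether they are high or low cannot be told.

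The annotation puts other non-coding genes on some of these summits. A gene of the class ncRNA, with no product named, overlapped the summit at 9 of the 60 IDR members, among them C05D2.17 at C05D2.15 and ZK484.10 at ZK484.9, both on the strand of the snoRNA gene. At 2 members, D1046.6 and T08B2.13, the summit lay in a pseudogene (D1046.t1 of 74 bp and T08B2.t1 of 72 bp) on the same strand. The rule left out regions at genes of the class tRNA only, so pseudogenes were not screened. Both members are among the 31 regions whose nearest snoRNA gene had the pair. Whether these pseudogenes derive from tRNA genes was not examined. How often other nuclear summits lie on ncRNA genes or pseudogenes was not counted.

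The snRNA regions of the IDR set had the A and B box pair in 0 of 6 windows of 100 bp to each side of the summit. Which polymerase transcribes their genes was not examined. Of the 6, 5 lay at 4 genes of 1 sequence family: W05B2.8, F54D8.7, R07E5.16 and, with 2 regions, C28A5.7. snRNA genes were joined to a family at 80% identity, and this largest family has 23 genes, of which 4 had an IDR peak, 3 had a weaker region and 16 had none. The exact sequence of each of the 4 occurs 17 times in the nuclear genome. How reads with more than 1 match were handled is not stated, so for reads within the gene the copy behind the signal cannot be told. Copies were counted over the gene only, and the flanks were not searched for copies. Among all 65 snRNA genes whose sequence occurs once, sup-6 was the only 1 with an IDR peak.

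W05B2.8 had the highest signal of them, 488.9 at rank 44, with 203.9 in replicate 1 and 304.7 in replicate 2. F54D8.7 had 208.3 at rank 221, with 85.4 in replicate 1 and 120.9 in replicate 2. R07E5.16 had 132.5 at rank 452, with 55.4 in replicate 1 and 75.9 in replicate 2. The regions at C28A5.7 had 136.8 and 118.8, at ranks 420 and 572. Both overlapped 1 region of replicate 1, with a signal of 60.4 and rank 395. Gene sup-6, in an intron of F58G1.7, had a signal of 119.7 at rank 559, with ranks 361 and 1073 in the replicates.

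Unlike the snoRNA summits of the IDR set, the few snRNA summits of that set had no common place. In the family they lay at position 98 in W05B2.8, 6 in F54D8.7, 79 in R07E5.16, and 154 and -47 around C28A5.7, genes of 101 or 102 bp. Of all 37 snRNA regions, 14 were upstream, 15 inside and 8 downstream of the gene. Of these, 31 are below the IDR set, where the snoRNA summits were spread as well. At 8 snRNA genes there were 2 regions each, against 5 snoRNA genes and 1 miRNA gene, and 5 of the 8 had a region on either side of the gene (C28A5.7, C53D6.12, F32B5.9, K09C6.12 and W04G5.11).

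No snRNA gene had the A and B box pair on its strand (0 of 99). CGGAACCC and GCGGAACC, which overlap by 7 letters, were the 8-mers most often found in the 100 bp ahead of snRNA genes, each in 26 of 99 flanks on the strand of the gene. The first, which is used here, lay at positions -74 to -56, the place of the proximal sequence element. It was in 5 of 19973 flanks of protein-coding genes and in 0 of 612 flanks of tRNA genes. In the largest family 5 of 23 genes had this 8-mer, and 15 of 23 had TATATAA in the same 100 bp, at a median position of -31, against 2.83% of protein-coding genes. The stretches from 75 bases before to 10 bases into 2 of these genes are shown, W05B2.8 at chrIII:10989604-10989688 (plus strand) with both elements in capitals, and R07E5.16 at chrIII:4414110-4414194 (plus), which has only the second.
W05B2.8: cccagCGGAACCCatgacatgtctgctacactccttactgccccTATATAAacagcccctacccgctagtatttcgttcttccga
R07E5.16: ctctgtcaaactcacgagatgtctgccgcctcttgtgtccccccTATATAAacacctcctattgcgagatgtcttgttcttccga

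The same 8-mer was ahead of 20 of 346 snoRNA genes, none of which had the A and B box pair. Of these 20, 1 had an IDR peak (5.00%, 0.127 to 24.9%), F59C6.15 at rank 269, against 31 of the 35 with the pair. A region of any rank lay at 10 of the 20, against 118 of the 326 snoRNA genes without the 8-mer. Among snoRNA genes with neither sequence, 22 of 291 had an IDR peak (7.56%, 4.80 to 11.2%), a share inside the interval of the genes with the 8-mer. Of the 26 snRNA genes with the 8-mer, 3 had an IDR peak (W05B2.8, F54D8.7 and sup-6) and 13 had a region of any rank. SmY RNA genes, nematode RNAs found with trans-splicing proteins, had no IDR peak, and 10 of 12 had no region at all.

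Below the IDR set, the first snRNA region lay at sup-39, with a signal of 80.7 at rank 1613, and mir-1831, which the annotation files as an snRNA gene, lay within 100 bp of the same summit. The second largest family, of 19 genes of 185 to 187 bp, had 4 genes with a region, the best at F08G2.11 with rank 3405. The family of sup-6 and sup-39, of 13 genes, had 7 with a region. Families with 12 and 5 genes had 6 and 3 genes with a region, and none in the IDR set.

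The single miRNA gene with an IDR peak was mir-5549 on chromosome III, with a signal of 108.9 at rank 696 in the pooled list. Its ranks were 883 in replicate 1 and 926 in replicate 2, so it was beyond the first 741 in both. Its summit lay 19 bp before the gene and 149 bp from the start of the replication factor gene rfc-4. The next miRNA regions were mir-4930, with a signal of 98.0 at rank 895, and mir-58.1, an abundant C. elegans miRNA, with 88.4 at rank 1217.

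Some miRNA genes known from earlier work are given as examples, chosen after their values were seen. The gene let-7, the heterochronic miRNA of late larval development, had 2 regions within its annotated span, at ranks 13153 and 16800. That span is 1732 bp long and overlaps an exon of a coding gene. The summits lay at positions 1467 and 683, which are 74 and 858 bp from the start of the coding gene C05G5.7. Where the mature miRNA lies in the span was not examined. mir-1, a muscle miRNA, had 1 region at rank 19617 with no region in either replicate list at that summit. A region at mir-35 and mir-36, of the early embryonic mir-35 family, had rank 22344. No region lay within 100 bp of lin-4 or lsy-6. Of the 47 regions with a miRNA gene, 18 were upstream, 15 inside and 14 downstream. The pair was ahead of 3 of 255 miRNA genes, mir-4812 with a region at rank 1301, mir-1829.2 at rank 15919 and mir-1829.3 with no region, and all 3 are on the X chromosome.

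At the limit of 100 bp, the members just inside were T08G5.11 at 90 bp, mir-8194 at 91 bp and F07C6.5 at 98 bp, with ranks 12723, 17403 and 28085. Just outside were mir-5595 at 101 bp with rank 16463, ZK20.9 at 104 bp with rank 251, K03B8.10 at 104 bp with rank 24946 and F41E6.18 at 107 bp with rank 9571. Only ZK20.9, a snoRNA gene, would have added a region of the IDR set there.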

How the data were processed

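CEH-6::GFP ChIP-seq regions of 2 biological replicates of 1 group were taken as the authors deposited them, on assembly ce11, per the text deposited with the samples: a relaxed list for each replicate, a relaxed list of the pooled reads and the IDR set, each made against 1 control. Neither the peak caller nor the aligner is named in the sources read. The signal of each region is the value the authors deposited, in a unit no source gives, and served only for ranks within a list. Depth is unknown. Summits were placed on genes of Ensembl release 115 (WBcel235, the assembly that ce11 names), with names from RefSeq matched by WormBase gene ID for all 700 genes, using Python 3.11.15, pandas 2.3.3, scipy 1.17.1 and edlib 1.3.9.post1. The pair search and the assignment of regions were tested on simulated data. Named genes were the snRNA and miRNA members in the IDR set, the 15 snoRNA members of highest signal, the first member below the set in each class, the members nearest to the limit and genes with 2 regions. Other genes named were chosen after their values were seen. The members and lists were chosen with earlier results of these data known, and the box pair, the snRNA families and the TATATAA search after the sequences were seen. Alternatives were other distances, numbers of top regions, windows and motif forms, single-copy genes and each replicate alone. No per-sample column was left unused.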

Additional observations from a re-analysis of the deposited data

How the results depend on the processing

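Of 60 other settings chosen at the outset, 48 gave values close to those reported: counts within 1.5 times, shares within the exact interval, and medians within the spread between the replicates. Among the 48, the settings that kept regions at tRNA genes could change nothing. The rule had left out 0 regions near both a small RNA gene and a tRNA gene. The number of members was 161 with a distance of 50 bp and 303 with 250 bp. Their median rank, 5956, was 7192 with 250 bp, 6862.5 with any overlap of region and gene, and 6062 to 6691 with each replicate left out in turn. The median summit position at snoRNA genes, -42, ran from -47 to -40 with each replicate left out. Of the 5 snRNA genes with an IDR peak, 2 were left among the top 370 regions and 1 when only genes whose sequence occurs once were used, by construction of these choices. The single miRNA gene became 0 among the top 370 regions, 4 among the top 1500, 5 with 250 bp, and 0 in each replicate alone (0 to 0), so the miRNA count rests on the pooled list. The share of snoRNA regions in an intron was 52.8% with hosts on either strand, against 37.7%. Allowing 2 mismatches per box lowered the share of snoRNA genes with the pair that have an IDR peak to 35.9%, against 88.6%. That setting was chosen after the data were seen. No paired analysis was possible because the design has 1 group. The lists hold no read counts, so no limit from depth could be set, and reads within copied snRNA genes cannot be assigned to 1 copy.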
